A study of Mus musculus with 6 samples.

Results

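The B cell receptor is assembled by a set of genes that a B lineage precursor switches on in steps, and 9 of them were followed in mouse blood stem cells with and without the leukaemia kinase BCR-ABL. They are Cd79a and Cd79b, the signal chains of the receptor; Cd72, an inhibitory co-receptor; Vpreb1, Vpreb3 and Igll1, which serve the precursor form of the receptor; Pax5 and Ebf1, transcription factors of the B lineage; and Rag2, a subunit of the recombinase. The genes were chosen on a measured contrast, since Cd79a and Vpreb3 had differed in opposite directions between BCR-ABL cells and control cells of wild-type donors. All 9 were found, each with 1 probe set, among 19934 genes that had a probe set carrying a single gene symbol.

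RNA came from marrow cells sorted as Lin-c-Kit+Sca-1+, a phenotype shared by blood stem cells and their earliest progeny. Donor mice were pre-treated with 5-fluorouracil, their marrow was infected with retrovirus, and the cells were transplanted into B6 recipients and sorted 14 days later. Alox5-/- LSC carried BCR-ABL with GFP in cells of Alox5-/- donors, LSC (leukaemia stem cells) carried BCR-ABL with GFP in cells of wild-type donors, and HSC were cells of the gate from wild-type donors that did not express BCR-ABL and came from the GFP vector. All mice are given as C57BL/6 (B6) and 8 weeks old. Each of the 3 groups had 2 arrays, named as biological replicates, and how many animals gave cells to each is not given in the sources used here. P-values therefore measure no spread beyond these samples, and limma moderates the spread of each probe set with that of all probe sets. None of the 6 arrays held vector-infected cells of Alox5-/- donors. Alox5-/- LSC and HSC therefore differed in both BCR-ABL and donor genotype, and these cannot be told apart in that comparison. The study asked which genes respond to BCR-ABL in leukaemia stem cells and how this differs when Alox5, the gene of arachidonate 5-lipoxygenase, is missing.

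As background, a developing B cell first cuts and joins its immunoglobulin heavy chain gene with the Rag1 and Rag2 recombinase. The new heavy chain is tested on the cell surface together with a surrogate light chain, built from the products of Vpreb1 or Vpreb2 and Igll1, and with the signal chains Cd79a and Cd79b. Ebf1 and Pax5 are known to drive transcription of many of these genes. In adult marrow the programme as a whole belongs to the B lineage and is not a defining property of blood stem cells. That is a statement on the whole set and not on each gene. In a sorted population, fewer cells of a type and less RNA per cell cannot be told apart.

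The deposited quantity is a score per probe set and array whose unit, log base and direction are not stated. It ran from 0 to 62.1, and 33.5% to 53.7% of an array's probe sets exceeded 16, which log2 intensities of a 16-bit scanner cannot. Array medians lay between 14.5 on Alox5-/- LSC replicate 2 and 16.4 on HSC replicate 2. Across probe sets, Pearson r was 0.794 to 0.824 within groups and 0.782 to 0.839 between groups, so the 2 ranges overlapped. To see which end of the scale belongs to transcribed genes, mean scores of gene classes were compared. The 175 probe sets of cytosolic ribosomal protein genes, a class that cells in general transcribe strongly, had a median of 11.5. This was at the 5.7th percentile of all probe sets, with quartiles of 6.49 and 18.0. The class was taken by symbol alone (Rpl or Rps and a number), so not each of its genes need be transcribed in these cells. The 19 probe sets of other broadly transcribed genes had a median of 12.4. The 1034 probe sets of olfactory receptor genes, which blood cells are not known to need, had a median of 16.1, at the 49.8th percentile. The medians of transcribed classes therefore lay below that of olfactory receptors, while their quartiles overlapped. No direction was drawn from this, and in all that follows higher and lower refer to the score and not to the amount of RNA. For the same reason Kit, at 11.5 and 10.5 in Alox5-/- LSC, 11.1 and 14.5 in LSC and 12.6 and 15.4 in HSC, could not serve as a check of the sorting gate. The deleted gene itself did not set the groups apart, with Alox5 at 14.4 and 13.5 in Alox5-/- LSC, 13.2 and 14.2 in LSC and 12.6 and 19.9 in HSC (Alox5-/- LSC minus LSC 0.26 ± 2.24, SE; limma adjusted p = 1.00). Whether its probe set lies in the deleted part is not given in the sources used here, so the genotype labels were not checked by these data. Ly6a, which encodes Sca-1, had no probe set with a single symbol.

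**Figure D1:**
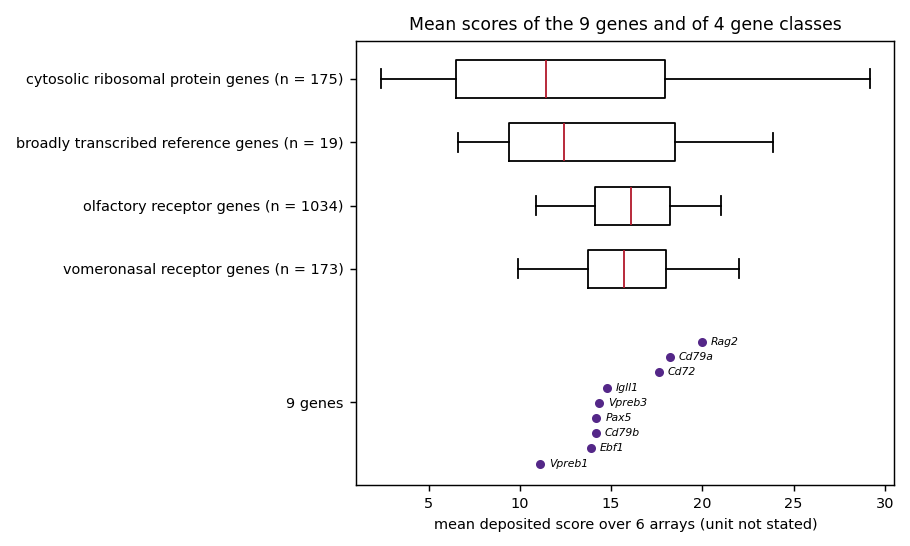
Mean deposited score over 6 arrays (horizontal axis, unit not stated) for 4 classes of genes and for the 9 genes. Boxes show the quartiles with the median in red, whiskers the 5th and 95th percentiles, and purple points single genes. The median was 11.5 for ribosomal protein genes and 16.1 for olfactory receptor genes.

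The receptor signal chains come first. Cd79a and Cd79b form the heterodimer that carries the signal of both the precursor and the mature receptor into the cell. Cd79a scored 15.1 and 11.5 in Alox5-/- LSC, 16.9 and 13.9 in LSC and 23.7 and 28.2 in HSC. Both HSC arrays stood above all 4 BCR-ABL arrays, while the Alox5-/- LSC and LSC arrays overlapped. Ranked within each array, the Cd79a probe set was at the 35.1st and 12.9th percentiles in Alox5-/- LSC, at the 61.0th and 23.5th in LSC, and at the 97.9th and 99.5th in HSC. These percentiles restate the scores that chose the gene. For Cd79a, Alox5-/- LSC minus LSC was -2.05 ± 2.09 (SE), Alox5-/- LSC minus HSC was -12.6 ± 2.09, and LSC minus HSC was -10.6 ± 2.09. Because Cd79a was picked for the last of these differences, and the other comparisons share arrays with it, no test is given for it. With each array left out in turn, Alox5-/- LSC minus LSC ran from -3.82 (without Alox5-/- LSC replicate 1) to -0.28 (without Alox5-/- LSC replicate 2), and it was -0.54 without LSC replicate 1 and -3.56 without LSC replicate 2.

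Its partner Cd79b did not show this pattern. Cd79b scored 15.01 and 12.9 in Alox5-/- LSC, 16.3 and 13.9 in LSC and 12.0 and 14.98 in HSC. The 3 groups overlapped in every comparison. For Cd79b, Alox5-/- LSC minus LSC was -1.14 with an SE of 1.55 (limma adjusted p = 1.00) and Alox5-/- LSC minus HSC was 0.46 ± 1.55 (adjusted p = 0.969). Its LSC minus HSC value was 1.60 ± 1.55. All 3 values moved by over 1.5 times when any single array of the groups compared was left out. Alox5-/- LSC minus LSC then ran from -2.35 to 0.072, Alox5-/- LSC minus HSC from -1.04 to 1.96 and LSC minus HSC from 0.096 to 3.10, the low end with HSC replicate 1 left out. Across the 6 arrays the 2 chains had a Pearson r of 0.01, and of -0.39 after each array was centred on its median. That value is a description over arrays that share their groups.

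Cd72 is a surface co-receptor of B cells that restrains receptor signals. It scored 12.0 and 15.9 in Alox5-/- LSC, 18.5 and 17.2 in LSC and 21.3 and 20.9 in HSC. No 2 groups overlapped, and the order was Alox5-/- LSC lowest, LSC next and HSC highest. For Cd72, Alox5-/- LSC minus LSC was -3.89 with an SE of 1.60 (limma unadjusted p = 0.0464, adjusted p = 1.00), and Alox5-/- LSC minus HSC was -7.13 ± 1.60 (unadjusted p = 0.00311, adjusted p = 0.697). Neither passed correction over all probe sets, and the first was -1.91 without Alox5-/- LSC replicate 1 and -5.87 without Alox5-/- LSC replicate 2. By rank within the array, Alox5-/- LSC replicate 2 (63.5th percentile) and LSC replicate 2 (64.9th) were the nearest arrays of those 2 groups. Its LSC minus HSC value was -3.24 ± 1.60.

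Vpreb3, a member of the Vpreb family whose product binds immunoglobulin chains early in the making of the precursor receptor, had the opposite pattern to Cd79a. It scored 18.4 and 14.3 in Alox5-/- LSC, 17.3 and 17.8 in LSC and 8.71 and 9.59 in HSC. All 4 BCR-ABL arrays lay above both HSC arrays, and Alox5-/- LSC and LSC overlapped. Within the arrays the probe set was at the 71.0th and 41.4th percentiles in Alox5-/- LSC, the 65.7th and 71.2nd in LSC, and the 1.8th and 2.5th in HSC. For Vpreb3, Alox5-/- LSC minus LSC was -1.21 ± 1.51 (SE), Alox5-/- LSC minus HSC was 7.18 ± 1.51 and LSC minus HSC was 8.40 ± 1.51, again with no test because the gene was picked on this contrast. Alox5-/- LSC minus LSC was -3.24 without Alox5-/- LSC replicate 1 and 0.82 without Alox5-/- LSC replicate 2. Pearson r between Vpreb3 and Cd79a over the 6 arrays was -0.80, and -0.91 after centring, which the choice of the pair largely fixes.

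The promoter windows of Cd79a and Vpreb3, 250 bases before to 50 bases after an annotated start site, are shown because the scores of these genes lay on opposite sides of their BCR-ABL values in HSC. They are RefSeq sequences of GRCm38.p6, printed 5′ to 3′, and capitals mark the E-box CAGNTG or its reverse complement, a motif bound by the B lineage factor E2A.

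Cd79a (chr7:24897247-24897546, plus strand): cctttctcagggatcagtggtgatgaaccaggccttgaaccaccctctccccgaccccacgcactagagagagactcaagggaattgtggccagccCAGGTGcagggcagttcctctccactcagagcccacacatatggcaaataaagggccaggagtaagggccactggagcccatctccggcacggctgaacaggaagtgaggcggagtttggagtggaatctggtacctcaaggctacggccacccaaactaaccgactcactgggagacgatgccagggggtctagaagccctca

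Vpreb3 (chr10:75948050-75948349, plus strand): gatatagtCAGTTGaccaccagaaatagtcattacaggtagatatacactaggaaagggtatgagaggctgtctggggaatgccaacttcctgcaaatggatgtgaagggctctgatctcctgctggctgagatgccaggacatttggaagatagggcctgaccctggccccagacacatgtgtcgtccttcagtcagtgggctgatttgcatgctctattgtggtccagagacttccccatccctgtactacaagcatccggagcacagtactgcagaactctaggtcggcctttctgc

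Each window held 1 E-box, beginning at position -154 from the start site in Cd79a and at -242 in Vpreb3. Windows were available for 8 of the 9 genes, and both strands were searched. At least 1 E-box was present for 6 of the 8 (Cd79a, Vpreb1, Vpreb3, Igll1, Cd72 and Rag2), against 51.4% of 32851 promoters of the same length. The last share counts windows and not genes. The 8 genes had 9 windows, since Ebf1 had more than 1, each with 0 E-boxes. The EBF1 palindrome TCCCNNGGGA was found for 0 of the 8 and in 0.9% of all promoters. With so rare a motif, 0 of 8 cannot set these genes apart from other promoters. Only the exact palindrome was searched, so looser EBF1 sites in these windows would have been missed. These counts describe letters in the windows and say nothing on binding.

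**Figure D2:**
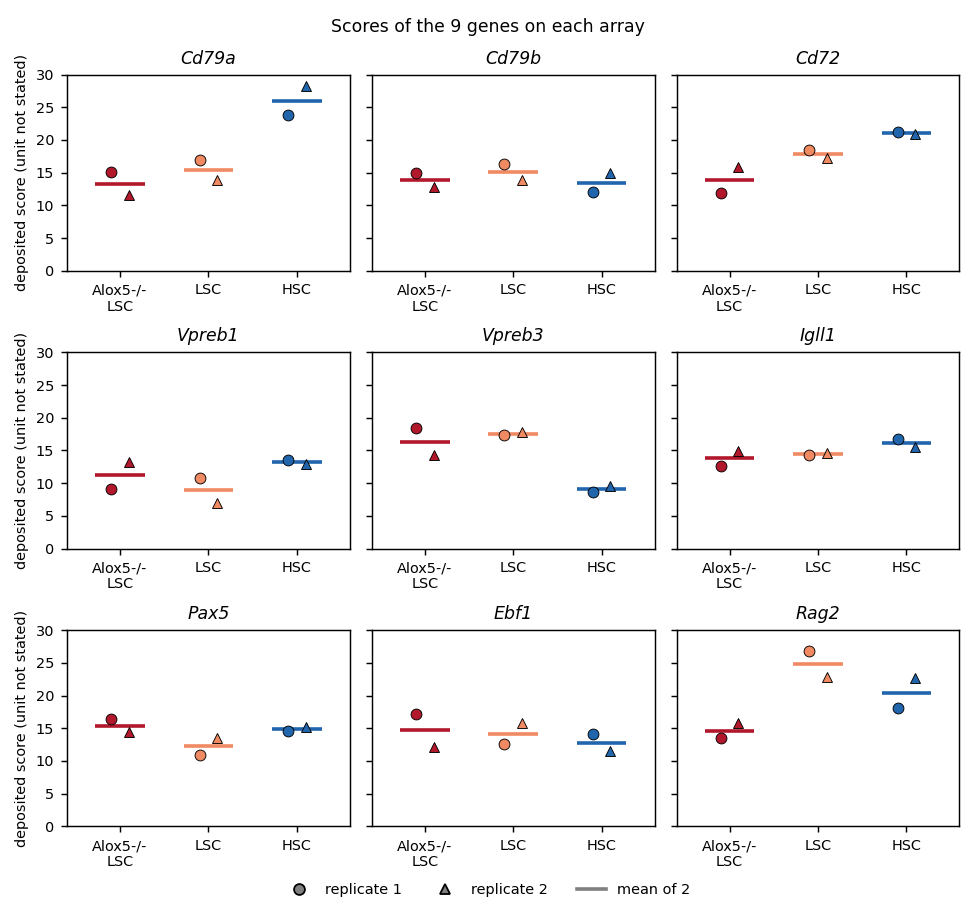
Deposited score (vertical axis, unit not stated) of each of the 9 genes in Alox5-/- LSC, LSC and HSC. Circles are replicate 1, triangles replicate 2 and bars the mean of 2 arrays. Cd79a stood at 23.7 and 28.2 in HSC, above its BCR-ABL arrays, and Vpreb3 at 8.71 and 9.59, below them.

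Vpreb1 supplies the V-like part of the surrogate light chain. It scored 9.16 and 13.3 in Alox5-/- LSC, 10.8 and 7.002 in LSC and 13.6 and 13.0 in HSC. LSC lay below HSC without overlap, and Alox5-/- LSC overlapped both. For Vpreb1, Alox5-/- LSC minus LSC was 2.29 with an SE of 1.77 (limma adjusted p = 1.00), Alox5-/- LSC minus HSC was -2.07 ± 1.77 (adjusted p = 0.842) and LSC minus HSC was -4.35 ± 1.77. The first of these was 0.24 without Alox5-/- LSC replicate 2, 0.36 without LSC replicate 2, 4.33 without Alox5-/- LSC replicate 1 and 4.21 without LSC replicate 1. Alox5-/- LSC minus HSC was -0.017 without Alox5-/- LSC replicate 1 and -4.12 without Alox5-/- LSC replicate 2, and LSC minus HSC was -2.43 without LSC replicate 2.

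Igll1, also called lambda 5, supplies the other part. It scored 12.6 and 14.9 in Alox5-/- LSC, 14.2 and 14.7 in LSC and 16.7 and 15.5 in HSC. Both BCR-ABL groups lay below HSC, but they overlapped HSC when ranked within the array. For Igll1, Alox5-/- LSC minus LSC was -0.68 with an SE of 1.24 (limma adjusted p = 1.00), Alox5-/- LSC minus HSC was -2.32 ± 1.24 (adjusted p = 0.746) and LSC minus HSC was -1.63 ± 1.24. The first of these was 0.45 without Alox5-/- LSC replicate 1 and -1.81 without Alox5-/- LSC replicate 2. Its Alox5-/- LSC minus HSC was -1.19 without Alox5-/- LSC replicate 1, and LSC minus HSC was -1.04 without HSC replicate 1. In GRCm38.p6 Igll1 and Vpreb1 are neighbours on chromosome 16, with 4.42 kb between them, and their scores had r = 0.62 over the 6 arrays. Igll1 had a higher r, 0.89, with Cd72 on chromosome 4, and a link of score to position was not tested.

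Vpreb2, the closest relative of Vpreb1, lies on the same chromosome and was measured by a probe set of its own. It scored 23.5 and 22.5 in Alox5-/- LSC, 21.5 and 19.6 in LSC and 17.7 and 16.1 in HSC. No 2 groups overlapped, and its order ran opposite to that of Cd72. For Vpreb2, Alox5-/- LSC minus LSC was 2.42 with an SE of 1.41 (limma adjusted p = 1.00) and Alox5-/- LSC minus HSC was 6.11 ± 1.41 (unadjusted p = 0.00362, adjusted p = 0.697). Its LSC minus HSC value was 3.69 ± 1.41 (limma unadjusted p = 0.0355, adjusted p = 0.999). LSC thus stood above HSC for Vpreb2 and below HSC for Vpreb1, with r = -0.35 between them over the 6 arrays. Near-identical genes can share hybridisation, and whether these probe sets do was not tested. Their windows are shown because the sequence makes the likeness of the pair visible.

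Vpreb1 (chr16:16869206-16869505, minus strand): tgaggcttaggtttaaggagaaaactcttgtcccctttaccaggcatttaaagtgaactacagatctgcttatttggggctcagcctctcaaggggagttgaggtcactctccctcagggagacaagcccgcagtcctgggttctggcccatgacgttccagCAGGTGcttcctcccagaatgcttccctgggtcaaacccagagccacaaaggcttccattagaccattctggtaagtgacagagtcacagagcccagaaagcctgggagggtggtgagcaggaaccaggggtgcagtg

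Vpreb2 (chr16:17980315-17980614, plus strand): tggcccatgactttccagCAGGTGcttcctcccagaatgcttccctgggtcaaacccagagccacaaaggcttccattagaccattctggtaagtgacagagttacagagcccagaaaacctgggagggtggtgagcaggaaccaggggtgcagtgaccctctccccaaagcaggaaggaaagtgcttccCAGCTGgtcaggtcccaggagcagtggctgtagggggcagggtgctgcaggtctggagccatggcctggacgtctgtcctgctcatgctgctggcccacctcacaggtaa

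Capitals again mark E-boxes, 1 in Vpreb1 and 2 in Vpreb2. In a stretch of 156 aligned bases, 153 were identical (98.1%). It covers the last 156 bases of the Vpreb1 window and the first 156 of the Vpreb2 window, so the annotated start sites of the pair are offset. The shared stretch holds the E-box of the Vpreb1 window, at -88, and the first of the E-boxes of the Vpreb2 window.

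**Figure D3:**
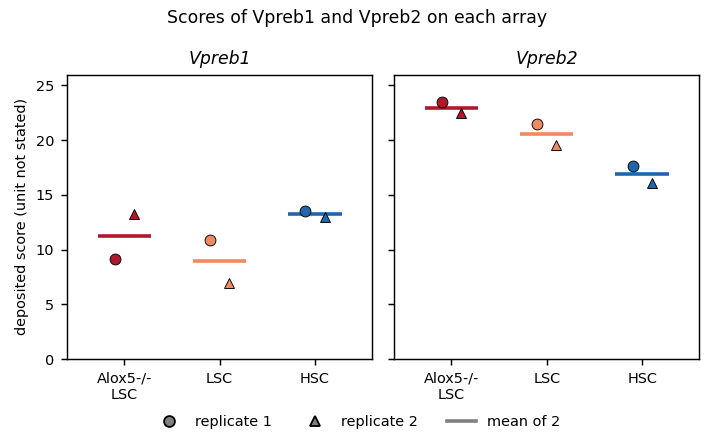
Deposited score (vertical axis, unit not stated) of Vpreb1 and Vpreb2 in Alox5-/- LSC, LSC and HSC. Circles are replicate 1, triangles replicate 2 and bars the mean of 2 arrays. Vpreb2 was highest in Alox5-/- LSC (23.5 and 22.5) and lowest in HSC (17.7 and 16.1), whereas Vpreb1 was lower in LSC (10.8 and 7.002) than in HSC (13.6 and 13.0).

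Ebf1 and Pax5 specify and then fix B lineage identity. Ebf1 scored 17.2 and 12.2 in Alox5-/- LSC, 12.6 and 15.7 in LSC and 14.1 and 11.5 in HSC. The replicates of a group lay 3.60 units apart on average and all groups overlapped. For Ebf1, Alox5-/- LSC minus LSC was 0.58 with an SE of 2.01 (limma adjusted p = 1.00), Alox5-/- LSC minus HSC was 1.92 ± 2.01 (adjusted p = 0.874) and LSC minus HSC was 1.34 ± 2.01. All 3 moved by over 1.5 times when any single array of the groups compared was left out. Alox5-/- LSC minus LSC then ran from -1.94 to 3.10, Alox5-/- LSC minus HSC from -0.60 to 4.44 and LSC minus HSC from -0.24 to 2.91.

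Pax5 scored 16.4 and 14.5 in Alox5-/- LSC, 11.0 and 13.6 in LSC and 14.6 and 15.2 in HSC. LSC was the low group and overlapped neither of the others. For Pax5, Alox5-/- LSC minus LSC was 3.14 with an SE of 1.34 (limma unadjusted p = 0.0517, adjusted p = 1.00). Its Alox5-/- LSC minus HSC value was 0.52 ± 1.34 (limma adjusted p = 0.954), with overlapping scores, and LSC minus HSC was -2.62 ± 1.34. Without LSC replicate 1, Alox5-/- LSC minus LSC was 1.84 and LSC minus HSC was -1.32. Alox5-/- LSC minus HSC moved by over 1.5 times whichever array of those groups was left out, from -0.42 (without Alox5-/- LSC replicate 1) to 1.47 (without Alox5-/- LSC replicate 2).

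Rag2, with Rag1, cuts the immunoglobulin genes at their recombination signals. It scored 13.5 and 15.8 in Alox5-/- LSC, 26.8 and 22.9 in LSC and 18.1 and 22.7 in HSC. LSC was the high group and Alox5-/- LSC the low one, with HSC between them and no overlap of any 2 groups, although the lower LSC array and the higher HSC array (22.9 and 22.7) nearly met. Within its array the probe set was at the 19.0th and 61.9th percentiles in Alox5-/- LSC, the 99.4th and 97.1st in LSC and the 73.7th and 93.5th in HSC. For Rag2, Alox5-/- LSC minus LSC was -10.2 with an SE of 2.12 (limma unadjusted p = 0.00204, adjusted p = 1.00), the 7th largest difference in size among 21601 probe sets in that comparison. That rank takes no account of spread or level. The mean gap between Rag2 replicates was at the 88.5th percentile of all probe sets, and its mean score at the 90.5th. Against HSC, Alox5-/- LSC stood at -5.77 ± 2.12 (limma unadjusted p = 0.0302, adjusted p = 0.697) and LSC minus HSC was 4.44 ± 2.12. Neither tested difference passed correction. Without HSC replicate 2, Alox5-/- LSC minus HSC was -3.48 and LSC minus HSC was 6.73, while leaving out replicate 1 gave an LSC minus HSC of 2.15 (the HSC array) or 2.49 (the LSC array). Pax5 and Rag2 had r = -0.80 over the 6 arrays, and -0.94 after centring, as a description.

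Cd79a and Vpreb3 aside, 7 genes were tested in the comparisons with Alox5-/- LSC, which share arrays with the contrast behind the choice, and limma called 0 of them at an adjusted p under 0.05. The share of all 21601 probe sets called was 0% against LSC, 0% against HSC and 0% in LSC versus HSC. At an unadjusted p under 0.05 there were 751 probe sets in Alox5-/- LSC versus LSC, 1536 in Alox5-/- LSC versus HSC and 1033 in LSC versus HSC. Rag2 and Cd72 were the members below that p, with lower scores, in both tested comparisons. Lower scores at that p were found for 2.63% of all probe sets in Alox5-/- LSC versus LSC and 6.33% in Alox5-/- LSC versus HSC.

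Groups that do not overlap are common with 2 arrays each. In Alox5-/- LSC versus LSC, 1 of 9 genes was higher without overlap and 2 were lower, against 9.64% and 21.1% of all probe sets. In Alox5-/- LSC versus HSC, 1 was higher and 4 were lower, against 6.54% and 29.1%. In LSC versus HSC, the contrast used to choose the genes, 2 were higher and 5 were lower, against 10.1% and 24.3%. The median difference of the 9 genes was -1.14, -2.07 and -1.63 in these 3 comparisons, and that of all probe sets -0.29, -0.79 and -0.47. The comparisons share arrays, so their values are not independent of each other.

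**Figure D4:**
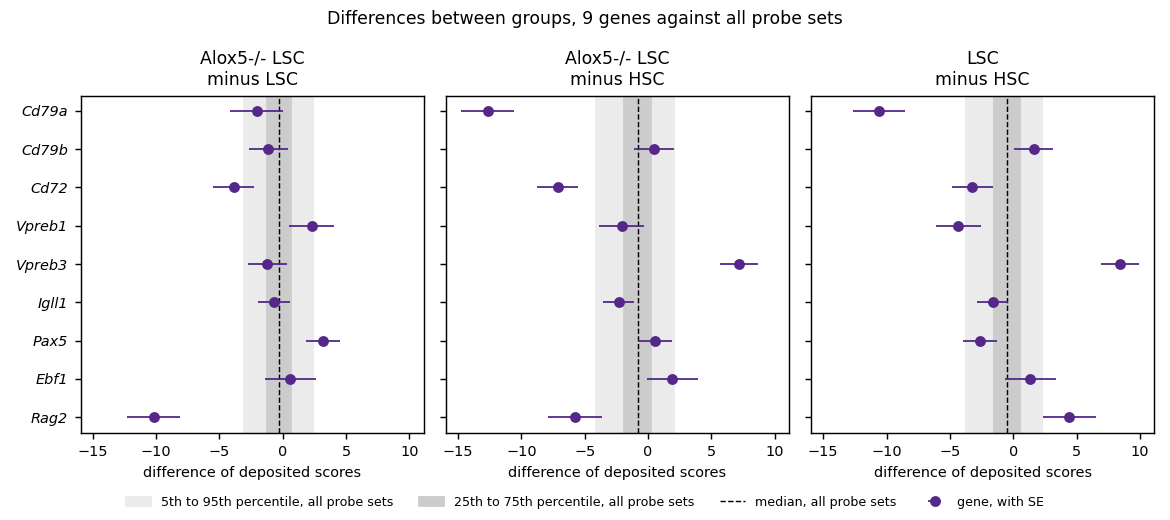
Difference of deposited scores (horizontal axis) for the 9 genes in Alox5-/- LSC minus LSC, Alox5-/- LSC minus HSC and LSC minus HSC. Points are estimates with SE, dark grey the 25th to 75th and light grey the 5th to 95th percentile of all probe sets, and dashed lines their median. Outside the light band lie Rag2 (-10.2), Cd72 (-3.89) and Pax5 (3.14) in the first panel. In the second panel Cd79a (-12.6), Vpreb3 (7.18), Cd72 (-7.13) and Rag2 (-5.77) lie outside it. In the third panel Cd79a (-10.6), Vpreb3 (8.40), Rag2 (4.44) and Vpreb1 (-4.35) do. Cd79a and Vpreb3 were chosen on the contrast of the third panel.

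Correlations among the 9 genes had both signs. Over the 6 arrays, 17 of the 36 pairs of members had a positive and 19 a negative Pearson r, with a median of -0.08 and a range of -0.86 (Vpreb3 with Igll1) to 0.89 (Igll1 with Cd72). The mean gap between the 2 replicates of a group was 1.69 for the median probe set. It was wider for Cd79a (3.66), Rag2 (3.61), Ebf1 (3.60), Vpreb1 (2.84) and Cd79b (2.52), and narrower for Igll1 (1.30). Averaged over the 3 groups, replicates of Vpreb3 (1.80), Cd72 (1.89) and Pax5 (1.72) were about as far apart as those of the median probe set. For Vpreb3 and Cd72 the groups were unequal. The SD of the 2 Vpreb3 replicates was 2.87 in Alox5-/- LSC, 0.33 in LSC and 0.62 in HSC. For Cd72 it was 2.80 in Alox5-/- LSC, 0.92 in LSC and 0.28 in HSC.

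Genes with the most similar pattern were sought among named genes over the 6 arrays. For Cd79a these were Nsd1, a histone methyltransferase gene (r = 0.998), Lrrd1 (r = 0.997) and Ccdc180 (r = 0.994). For Vpreb3 they were the class I gene H2-K2 (r = 0.984), Hbs1l (r = 0.983) and Mpig6b (r = 0.982), a receptor of megakaryocytes and platelets. Of 21600 other probe sets, 153 had r above 0.95 with Cd79a and 11 with Vpreb3. Similar shape does not mean similar size. Nsd1 scored 18.3 and 17.8 in Alox5-/- LSC, 18.6 and 18.1 in LSC and 19.4 and 20.3 in HSC, a far narrower span than that of Cd79a.

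Other genes of the pathway were read from lists, and 0 were called at an adjusted p under 0.05 in any comparison. Values below are therefore given for single genes at an unadjusted limma p under 0.05, beside shares for all probe sets. Higher scores at that p were found for 0.847% of all probe sets in Alox5-/- LSC versus LSC, 0.778% in Alox5-/- LSC versus HSC and 0.995% in LSC versus HSC. Lower scores were found for 2.63%, 6.33% and 3.79%. The lists were chosen with earlier results of these data known, and LSC versus HSC was the contrast behind the choice of the 9 genes.

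Immunoglobulin chains and Vpreb2 were measured by 7 probe sets of 4 genes. In Alox5-/- LSC versus LSC, 0 were higher and 1 was lower at an unadjusted limma p under 0.05. The lower 1 was Igha, the constant region of IgA. Igha scored 4.99 and 2.80 in Alox5-/- LSC, 12.5 and 9.04 in LSC and 9.40 and 7.88 in HSC, so Alox5-/- LSC overlapped neither other group. For Igha, Alox5-/- LSC minus LSC was -6.90 with an SE of 1.44 (limma unadjusted p = 0.00208, adjusted p = 1.00), and Alox5-/- LSC minus HSC was -4.75 ± 1.44 (unadjusted p = 0.0135, adjusted p = 0.697). Vpreb2 was the 1 probe set of the list higher at an unadjusted limma p under 0.05 in each of the comparisons with HSC.

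The signal chain downstream of the receptor had 16 measured genes, with 0 higher at an unadjusted limma p under 0.05 in any comparison. The adaptor Blnk was the 1 lower at that p in Alox5-/- LSC versus LSC. It scored 13.2 and 11.9 in Alox5-/- LSC against 16.6 and 14.6 in LSC (difference -3.09, limma unadjusted p = 0.0422, adjusted p = 1.00). The kinase Btk scored 13.3 and 10.9 in Alox5-/- LSC, 10.8 and 12.9 in LSC and 15.4 and 18.4 in HSC. The BCR-ABL groups overlapped each other but not HSC. Btk stood at -4.77 in Alox5-/- LSC minus HSC (limma unadjusted p = 0.0178, adjusted p = 0.697) and at -5.05 in LSC minus HSC (unadjusted p = 0.0139, adjusted p = 0.999). Bcl10, an adaptor between the receptor and NF-kappaB, was the other listed gene lower at an unadjusted p under 0.05 in Alox5-/- LSC versus HSC. Its difference was -5.47 (limma unadjusted p = 0.0404, adjusted p = 0.697). Of 11 inhibitory co-receptors and phosphatases, 0 were at an unadjusted p under 0.05 in the 3 comparisons.

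V(D)J recombination and end joining had 15 probe sets of 14 genes beside Rag2. Dntt, the transferase that adds bases at the joins, scored 20.4 and 14.2 in Alox5-/- LSC, 16.025 and 19.6 in LSC and 13.1 and 8.75 in HSC. All 4 BCR-ABL arrays lay above the HSC arrays. Dntt stood at 6.43 in Alox5-/- LSC minus HSC (limma unadjusted p = 0.0366, adjusted p = 0.697) and at 6.90 in LSC minus HSC (unadjusted p = 0.0280, adjusted p = 0.999). Nhej1, an end joining factor, had a lower score in Alox5-/- LSC than in LSC (-4.94, limma unadjusted p = 0.0232, adjusted p = 1.00). Trp53bp1, which protects broken ends, had a lower score in Alox5-/- LSC than in HSC (-3.11, limma unadjusted p = 0.0384, adjusted p = 0.697).

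Among 21 B lineage transcription factors, 0 were at an unadjusted p under 0.05 in Alox5-/- LSC versus LSC. In each of the comparisons with HSC, 0 were higher and 2 were lower at that p, Foxo1 and Irf8. Foxo1, which acts on Rag transcription in B cell precursors, scored 14.1 and 16.7 in Alox5-/- LSC, 16.8 and 13.5 in LSC and 20.5 and 20.0 in HSC. Irf8 scored 11.0 and 14.0 in Alox5-/- LSC, 12.5 and 12.3 in LSC and 18.4 and 16.1 in HSC. For both genes the BCR-ABL groups overlapped each other and lay below HSC, and the comparisons share the HSC arrays. Of 16 surface genes of common lymphoid and pro-B cells, 0 were at that p in the 3 comparisons.

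Markers of other cells that a gate can admit were read in the same way. Among 12 T cell markers, 1 was at an unadjusted p under 0.05, Cd3d, with a lower score in Alox5-/- LSC than in HSC (-3.06, limma unadjusted p = 0.0242, adjusted p = 0.697). The mean score of the T cell list was 17.5 and 15.7 in Alox5-/- LSC, 17.2 and 16.5 in LSC and 17.4 and 18.0 in HSC. Of 6 plasma cell markers, 0 were at that p, and the list averaged 17.8 and 15.2 in Alox5-/- LSC, 18.4 and 15.2 in LSC and 16.2 and 16.02 in HSC. At that p, 1 of 14 granulocyte and monocyte markers was lower in Alox5-/- LSC versus LSC (Ly6g). In Alox5-/- LSC versus HSC 1 was lower (Ngp) and in LSC versus HSC 2 were (Fcnb and Csf3r), with 0 higher at that p. The mean of the 14 markers was 14.98 and 13.0 in Alox5-/- LSC, 14.3 and 14.4 in LSC and 14.7 and 16.1 in HSC. At that p, among 7 erythroid and megakaryocyte probe sets, Pf4 was lower in Alox5-/- LSC versus LSC and Klf1 in Alox5-/- LSC versus HSC. Itga2b was higher at that p in LSC versus HSC. That list averaged 15.6 and 13.0 in Alox5-/- LSC, 15.3 and 14.3 in LSC and 13.9 and 15.7 in HSC. Since the direction of the score is unknown, the presence or absence of these cells could not be read from the values, and their part in the results was not tested.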

How the data were processed

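Whole-transcript Affymetrix arrays of 6 samples were used. Per the labels' protocols, 100 to 300 ng of total RNA was amplified and biotin labelled. Affymetrix Expression Console 1.1 and RMA are named in the submitters' processing notes, in no stated role. The authors deposited 1 score per probe set and array, with the unit of the score not given in the sources used here. Of 35557 probe sets, 34499 carried values. Symbols were those of GEO's annotation of the platform, and 21601 probe sets with values and exactly 1 symbol were tested. The linear model (limma 3.58.1, R 4.3.3) took the scores as deposited and had 1 mean for each of 3 groups, 3 residual degrees of freedom and a variance prior that follows the mean. Tests were two-sided, adjusted by Benjamini-Hochberg over all 21601 probe sets, with a threshold of 0.05. No filter on low scores was set. Errors of differences are limma standard errors, from a spread shared over all 6 arrays, and the number of arrays limits their precision. The members and lists were chosen with earlier results of these data known. The rule for named genes took all members, the 3 named genes most correlated with Cd79a and with Vpreb3, and of each list up to 3 genes per direction with the smallest unadjusted p under 0.05. Promoter sequences are from RefSeq (GRCm38.p6) and were searched and aligned with Biopython 1.88. Protein sequences were not used here.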

Additional observations from a re-analysis of the deposited data

How the results depend on the processing

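Over 15 alternatives limma called 0 probe sets at an adjusted p under 0.05 in each of the 3 comparisons. They were centring, quantile normalization, log2(score + 1), removal of low or of high scores, 1 probe set per symbol, all probe sets, no trend, the replicate block and each array left out in turn. Removal below the 25th percentile left out Vpreb1, Ebf1, Cd79b and Pax5, and removal above the 75th left out Rag2 and Cd79a. Signs of tested members turned only when 1 array was left out. Without single arrays Alox5-/- LSC minus LSC ran from -1.94 to 3.10 for Ebf1 (negative without Alox5-/- LSC replicate 1 or LSC replicate 1), from -2.35 to 0.072 for Cd79b (positive without LSC replicate 1) and from -1.81 to 0.45 for Igll1 (positive without Alox5-/- LSC replicate 1). Alox5-/- LSC minus HSC ran from -0.60 to 4.44 for Ebf1 and from -0.42 to 1.47 for Pax5 (both negative without Alox5-/- LSC replicate 1), and from -1.04 to 1.96 for Cd79b (negative without Alox5-/- LSC replicate 1 or HSC replicate 1). The cause was not tested. Among values without a test, Vpreb3 in Alox5-/- LSC minus LSC was 0.82 without Alox5-/- LSC replicate 2, and Ebf1 in LSC minus HSC was -0.24 without LSC replicate 2. With 1 array left in a group, that array is assumed to vary like the other groups. Rag2 ran from -12.2 to -8.26 in Alox5-/- LSC minus LSC, from -8.06 to -3.48 in Alox5-/- LSC minus HSC and from 2.15 to 6.73 in LSC minus HSC. Centring each array and quantile normalization, in this order, moved Alox5-/- LSC minus HSC by over 1.5 times for Cd79b (1.35 and 1.39), Vpreb1 (-1.18 and -1.099), Igll1 (-1.43 and -1.32) and Pax5 (1.41 and 1.36), and Alox5-/- LSC minus LSC for Igll1 (-0.33 and -0.17). Ebf1 in Alox5-/- LSC minus LSC was 0.93 after centring.

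Counts at an unadjusted p under 0.05 moved by over 1.5 times in 6 cases. In LSC versus HSC, 1033 became 681 without LSC replicate 1 and 1699 without HSC replicate 1. In Alox5-/- LSC versus LSC, 751 became 1396 without Alox5-/- LSC replicate 2, and in Alox5-/- LSC versus HSC 1536 became 902 without HSC replicate 2. With all 34499 probe sets, which are more features, the counts were 1704 in LSC versus HSC and 1365 in Alox5-/- LSC versus LSC. With the replicate number as a block the counts were 635 in Alox5-/- LSC versus LSC, 1279 in Alox5-/- LSC versus HSC and 884 in LSC versus HSC, and 0 were called after adjustment. Arrays of the same number did not deviate together (r of -0.05 to -0.03 between groups), so the block pairs them by number only.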
